A study of Mus musculus with 21 samples.

Results

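Sorted Lgr5 cells of mice on 2 modified diets were compared across all genes: AINlowVitD, the AIN diet whose vitamin D dose the labels put at 0.11 IU/g, and NWD1Ca, the NWD1 diet with calcium given as 7.0 mg/g. The 6 libraries are the 3 of each group among the 21 of the series, and all 37310 genes of the count table entered except the 92 ERCC spike-in rows. The mice of these 6 libraries were Lgr5EGFPcre-ERT2 mice, fed their diet from weaning to 3 months of age, with no other allele or agent named in the labels. The labels write both doses per g of body weight, and whether they are amounts per g of diet instead could not be settled. What else the base diets hold is not stated in the labels used here. The AINlowVitD libraries came from 2 females and 1 male (AINlowVitD 3), and the NWD1Ca libraries from 3 females. The base diet and the named additions differ together between the groups, so these factors cannot be told apart in the comparison. The male mouse is in 1 group only. The main fit holds a sex term shared by all groups, which adjusts for sex only as far as its effect is the same in each. The labels do not say that the libraries of a group came from separate mice. In the main fit, p-values and intervals rest on the spread between libraries, estimated over all 21 and not these 6 alone. Those 21 include a Vdr knockout group on the AIN diet (AIN_VdrKO) and a further diet, NWD2.

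Lgr5 is a receptor for R-spondins that marks dividing stem cells of the intestine, which sit at the bottom of the crypts. In this strain the Lgr5 locus drives a green fluorescent protein, and the brightest 2 to 3% of fluorescent cells were sorted in bulk. AIN76A is a purified rodent diet used as a control, and NWD1 is known as a purified Western-style diet with more fat and less calcium, vitamin D and methyl donors. Vitamin D acts through its nuclear receptor Vdr, which in the intestine switches on genes of calcium uptake: the apical channel Trpv6, the cytosolic carrier S100g and, at the basal side, the calcium pump Atp2b1. Low dietary calcium is known to raise the active hormone, and high calcium to lower it. The comparison sets a control diet that is short of vitamin D beside a Western-style diet to which calcium was added.

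No gene passed the test. Of 16050 genes tested with the edgeR quasi-likelihood test, 0 (0%) had a Benjamini-Hochberg adjusted p under 0.05, and the smallest adjusted p was 1. At an unadjusted p under 0.05 stood 209 genes, of which 127 (0.791% of those tested) were higher and 82 (0.511%) lower in AINlowVitD, with a smallest p of 0.000878. The 209 genes were 1.3% of those tested. With no gene differing and p-values spread evenly, a share of 0.05 would lie under that threshold. The absence of calls therefore does not show that the groups were alike. All fold changes are on the log2 scale, AINlowVitD minus NWD1Ca. They were centred near 0 (median 0.02), with 8493 genes above 0 and 7554 below, and 1090 lay beyond 1 in either direction. The median standard error was 0.40, so the 95% interval of a gene reached 0.85 to either side in the median, and 0.64 for the 4564 genes whose mean log2 CPM (reads per gene as a share of the library's gene reads, on the usual CPM scale) was 5 or more. For 7105 genes (44.3%) the whole interval lay within 1 of 0, and for 3222 (70.6%) of the more abundant ones, so a change beyond 2-fold lay outside the interval there. For the other genes the interval did not exclude such a change.

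**Figure D1:**
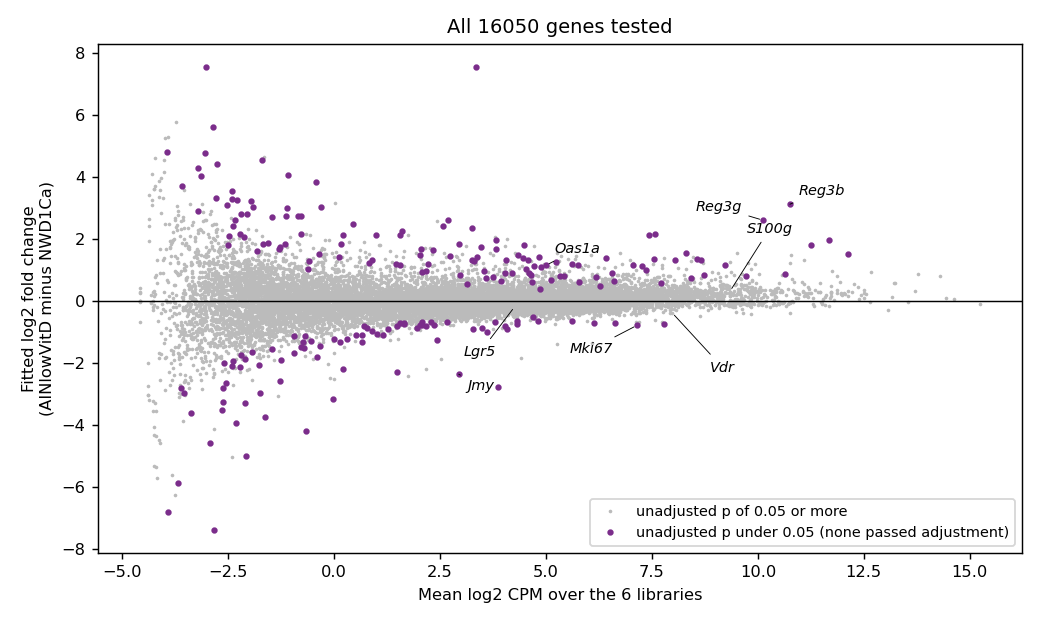
Fitted log2 fold change (AINlowVitD minus NWD1Ca) against the mean log2 CPM of the 6 libraries, 1 point per gene tested. The 209 purple points had an unadjusted p under 0.05 and none passed adjustment. The spread widens at low abundance, and Reg3b and Reg3g lie above most genes of their abundance.

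Other tools and filters made a few calls. DESeq2 with the same design called 5 genes (1 higher, 4 lower). Their log2 fold changes were -4.23 for Gm8399, -15.1 for Steap4, -18.3 for Slc6a14, -18.4 for Fgb and 17.3 for Pcdhb8. All but that of Gm8399 lay outside the range that edgeR fitted over all genes tested, -7.37 to 7.54. Their sizes cannot be read as folds. Fitted on only the 6 libraries and without a sex term, DESeq2 called 20 (16 higher, 4 lower), an alternative added after the data were seen. That fit did not adjust for the male library, and every later mention of DESeq2 on the 6 libraries refers to it. Without the filter on low counts edgeR called 90 of 27918 genes (70 higher, 20 lower). In edgeR, leaving out any 1 of the 6 libraries gave 0 calls each time, with 121 to 495 genes at an unadjusted p under 0.05. EdgeR on only the 6 libraries, without a sex term, also gave 0 calls, but 841 of 13795 genes had an unadjusted p under 0.05. Limma on log2(TPM + 1) of the 6 libraries, added after the data were seen, gave 0 calls and 2433 of 16050 genes at that level. The main fit had 209. Among the 20 calls of DESeq2 on the 6 libraries were Reg3b, Oas1a, Oas1g, Zbp1, Ifi44, Fbp1 and Neil3, which are described next.

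Gene counts per library ranged from 19889795 to 44168517 in AINlowVitD and from 23580204 to 36244534 in NWD1Ca. Of 72 spike-ins tested, edgeR called 0 (0%), and 1 had an unadjusted p under 0.05. The share of mitochondrial ribosomal RNA among gene counts did not overlap, with 2.95% to 3.85% in AINlowVitD and 4.31% to 4.63% in NWD1Ca. The TMM scaling factors did not overlap either, at 0.709 to 0.831 against 0.857 to 0.901. Libraries correlated in log2 CPM at 0.967 to 0.975 within AINlowVitD, at 0.975 to 0.979 within NWD1Ca and at 0.963 to 0.979 between the groups. On the first principal component of the 6 libraries (32.7% of the variance) the groups interleaved, and the ends were AINlowVitD 3 at 63.0 and NWD1Ca 2 at -44.6. The stem cell markers were present throughout. Lgr5 had 340 to 851 counts per library, and Olfm4, a secreted glycoprotein of crypt base cells, had 599 to 1865 CPM. Products of differentiated cells were abundant in the same libraries, with the fatty acid binding protein Fabp1 at 10519 to 39238 CPM and the Paneth cell defensin Defa24 at 9109 to 45143 CPM.

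Trpv6 was near 0 in both groups. It had 5, 2 and 1 counts in the AINlowVitD libraries and 1, 0 and 4 in NWD1Ca, so no fold between them can be read. The same channel had 27, 29 and 383 counts in the NWD1VitD libraries (NWD1 with a vitamin D dose of 2.3 IU/g in the labels), 1071, 796 and 853 in NWD1 and 2, 2 and 0 in AIN. Neither a diet low in vitamin D on the AIN base nor added calcium on the NWD1 base came with Trpv6 counts above 5 in any of these 6 libraries. Cyp24a1, the enzyme that breaks down active vitamin D, was too low to be tested, with 0, 2 and 0 counts in AINlowVitD and 0 in all 3 NWD1Ca libraries, where a count of 0 allows up to 3 counts.

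The other calcium genes overlapped between the groups. S100g, the cytosolic calcium carrier, stood at 1491, 489 and 442 CPM in AINlowVitD and at 773, 292 and 1007 in NWD1Ca, with a fitted log2 fold change of 0.31 ± 0.84 (SE; 95% interval -1.44 to 2.05). Its libraries spread more within each group than the group means differed. Atp2b1, the basal calcium pump, was even across the 6 libraries, at 170, 138 and 156 CPM against 163, 119 and 169 (0.10 ± 0.25, interval -0.43 to 0.63). Vdr itself had 250, 273 and 155 CPM in AINlowVitD and 264, 273 and 327 in NWD1Ca (-0.37 ± 0.35, interval -1.11 to 0.36), the lowest value being that of the male AINlowVitD 3. Each of these intervals leaves room for a moderate change in either direction, and that of Atp2b1 excludes one of 2-fold. All had an adjusted p of 1 in edgeR.

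**Figure D2:**
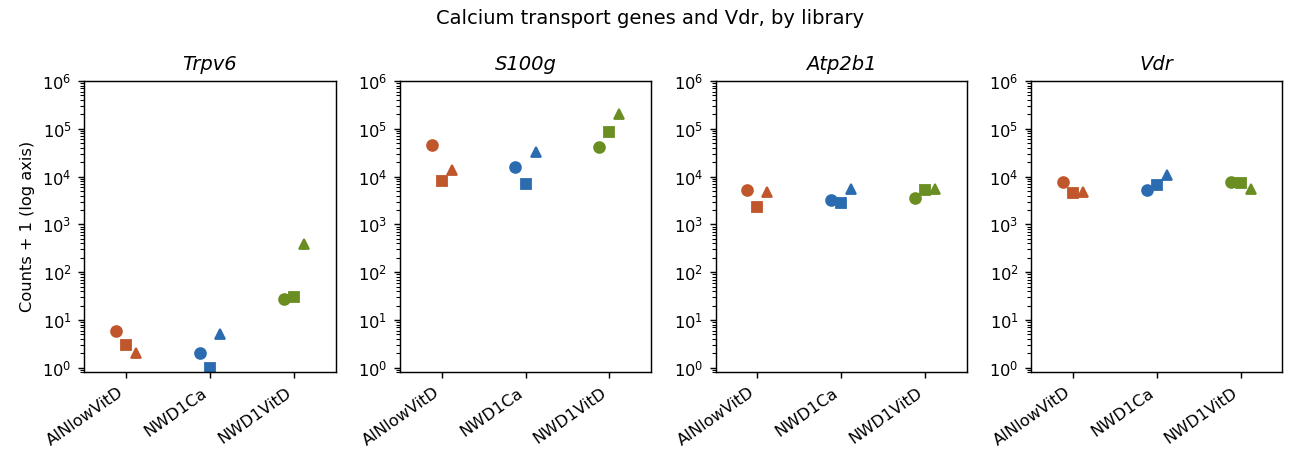
Counts plus 1 on a log axis for Trpv6, S100g, Atp2b1 and Vdr, 1 point per library, in AINlowVitD, NWD1Ca and, for reference, NWD1VitD (counts are not scaled for depth). Trpv6 lies at 0 to 5 counts in the first 2 groups and at 27 to 383 in NWD1VitD, while the other genes overlap between AINlowVitD and NWD1Ca.

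Over the 30 tested members of the list of vitamin D receptor targets and calcium transport genes, 0 were called, and the median log2 fold change was 0.41 against 0.02 over all genes, with 24 members above 0. With log2(TPM + 1) that median was 0.03. The groups stood apart (all 3 libraries of one group above all 3 of the other in CPM) for 1 member higher and 0 lower. Over all genes tested the groups stood apart for 1004 higher (6.26%) and 881 lower (5.49%). That member was Mt1, a metallothionein that binds zinc and copper and shares near-identical sequence with Mt2, at 2395, 1917 and 2215 CPM in AINlowVitD and 1506, 1682 and 1615 in NWD1Ca (0.62 ± 0.47). The xenobiotic hydroxylase Cyp3a11, a known Vdr target, ran from 24.7 to 262 CPM in AINlowVitD and from 7.48 to 75.9 in NWD1Ca (1.36 ± 1.16), with wide overlap.

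How many genes stood apart, and in which direction, followed the scaling. Of the genes that stood apart, 53.3% were higher in AINlowVitD with TMM scaling, 45% with the size factors of DESeq2 (853 higher, 1042 lower), 40.2% with upper quartile scaling (754 and 1120), 9.28% with total counts (255 and 2492) and 4.52% with log2(TPM + 1) (171 and 3616). Relative to TMM, the median gene moved by -0.22 with total counts and by -0.24 with log2(TPM + 1), both in log2 units. The counts for gene lists given next are with TMM, followed by those under total counts where they differ. Over all genes the shares apart were 6.26% higher and 5.49% lower with TMM, and 1.59% higher and 15.5% lower with total counts. For the list of vitamin D receptor targets and calcium transport they were 1 higher and 1 lower under total counts.

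The genes with the smallest unadjusted p, outside predicted genes and clones and above a mean log2 CPM of 2, were Reg3b, Oas1a, Nrg4, Oas1g and Fbp1 on the higher side. On the lower side they were Jmy, Aspm, Mki67, Neil3 and Bex1. None passed adjustment (adjusted p of 1 each). Reg3b and Reg3g encode secreted C-type lectins that the epithelium makes against bacteria. Reg3b (ENSMUSG00000071356.4) stood at 1753, 5142 and 8648 CPM in AINlowVitD and at 615, 801 and 695 in NWD1Ca. Every AINlowVitD library was above every NWD1Ca library, and the spread lay in AINlowVitD, where the male library was highest. The means were 5181 ± 3447 and 704 ± 93.5 CPM (SD, n = 3), a ratio of 7.36, and the fitted log2 fold change was 3.12 ± 0.91 (interval 1.22 to 5.01, unadjusted p = 0.00269 in edgeR). Without AINlowVitD 3 it was 2.29, and in the 5 female libraries alone 2.26. DESeq2 on the 6 libraries, without a sex term, called it (2.87 ± 0.40, adjusted p = 1.22e-08). Over all alternatives its adjusted p ranged from 1.22e-08 to 1. Reg3g (ENSMUSG00000030017.1) showed the same order of libraries in AINlowVitD, at 1156, 2424 and 5274 CPM against 444, 724 and 404 in NWD1Ca (2.60 ± 0.90, unadjusted p = 0.00909 in edgeR). Reg3b and Reg3g are close copies, so their counts may share or lose reads.

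**Figure D3:**
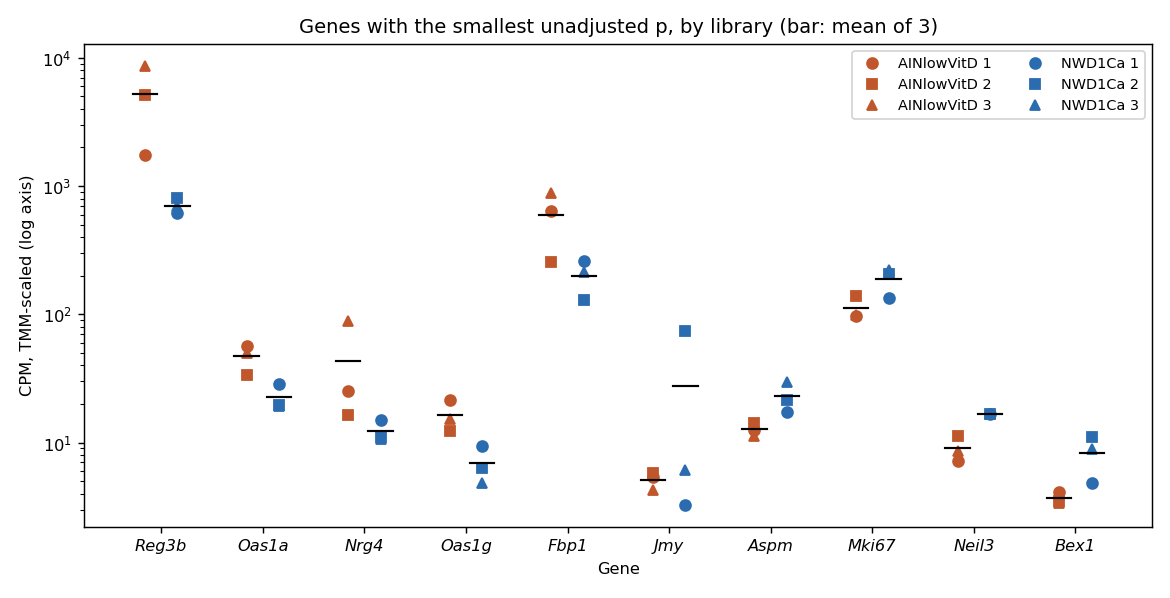
CPM on a log axis for the 10 genes with the smallest unadjusted p, 1 point per library, with a bar at the mean of each group. Reg3b lies at 1753 to 8648 CPM in AINlowVitD and 615 to 801 in NWD1Ca, Jmy is high in NWD1Ca 2 alone (73.9 CPM), and the groups of Fbp1 and Mki67 overlap.

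Oas1a and Oas1g encode 2'-5' oligoadenylate synthetases, enzymes made in response to interferon that sense double-stranded RNA. Oas1a (ENSMUSG00000052776.9) had 57.0, 33.8 and 50.1 CPM in AINlowVitD and 28.8, 19.8 and 19.1 in NWD1Ca. The groups did not overlap, and the fitted log2 fold change was 1.15 ± 0.34 (interval 0.44 to 1.86, unadjusted p = 0.00302 in edgeR). Oas1g (ENSMUSG00000066861.7), its neighbour and close copy, had 21.5, 12.3 and 15.2 CPM against 9.41, 6.36 and 4.84 (1.43 ± 0.47). Leaving out each of the 6 libraries in turn gave 1.01 to 1.41 for Oas1a and 1.23 to 1.72 for Oas1g.

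The promoters of these 2 pairs of genes are shown because the members of each pair had like values across the libraries. They are RefSeq windows of 300 bases in build GRCm38.p6, from 250 bases before the start of transcription to 50 after it, 5′ to 3′ along the gene. The deposited counts rest on build mm9, so the windows serve for sequence only. For the Oas1 genes the capitals mark matches to the interferon-stimulated response element, of which each window held 2 that overlap. They lay on chromosome 5 at chr5:120907476-120907775 for Oas1a and chr5:120887564-120887863 for Oas1g, both on the minus strand.
Oas1a: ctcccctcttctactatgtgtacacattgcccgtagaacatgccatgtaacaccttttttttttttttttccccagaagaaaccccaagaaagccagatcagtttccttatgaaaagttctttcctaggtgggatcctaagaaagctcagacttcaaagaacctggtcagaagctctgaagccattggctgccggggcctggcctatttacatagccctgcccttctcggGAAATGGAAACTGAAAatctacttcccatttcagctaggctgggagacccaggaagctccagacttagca
Oas1g: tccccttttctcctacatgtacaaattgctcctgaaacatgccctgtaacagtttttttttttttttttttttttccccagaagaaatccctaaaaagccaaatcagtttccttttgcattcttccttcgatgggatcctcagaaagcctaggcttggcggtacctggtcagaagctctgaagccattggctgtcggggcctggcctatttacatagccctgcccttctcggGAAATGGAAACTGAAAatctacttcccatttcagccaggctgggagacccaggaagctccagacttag
For the Reg3 genes TTCNNNGAA, the STAT site, was searched; capitals mark the 1 match of Reg3b, and Reg3g had 0. They lay at chr6:78370635-78370934 for Reg3b on the plus strand and chr6:78468825-78469124 for Reg3g on the minus strand.
Reg3b: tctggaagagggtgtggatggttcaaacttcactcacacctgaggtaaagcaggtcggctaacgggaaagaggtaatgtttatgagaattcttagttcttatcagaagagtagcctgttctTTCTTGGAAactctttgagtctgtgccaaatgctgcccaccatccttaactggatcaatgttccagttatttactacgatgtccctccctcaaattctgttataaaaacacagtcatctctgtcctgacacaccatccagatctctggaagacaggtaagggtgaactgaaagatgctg
Reg3g: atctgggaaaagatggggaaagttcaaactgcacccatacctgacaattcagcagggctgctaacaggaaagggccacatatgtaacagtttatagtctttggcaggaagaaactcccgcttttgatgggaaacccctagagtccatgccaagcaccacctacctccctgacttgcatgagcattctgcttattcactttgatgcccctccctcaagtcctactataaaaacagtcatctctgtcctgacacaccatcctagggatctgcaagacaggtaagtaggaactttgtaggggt
Both strands were searched. The response element was in 3.44% of 32851 windows, or in 3.99% of the 27025 genes of the table. It was found for 20 (60.6%) of the 33 tested interferon response genes that the table holds, and for 2 (28.6%) of the 7 held among those whose groups stood apart. The STAT site was in 8.3% of windows (9.55% of genes) and in 5 (22.7%) of 22 matched members of the antimicrobial and Reg list. A match describes letters in a window and not a bound site.

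The interferon response list as a whole lay higher in AINlowVitD, with 0 members called. Of its 45 tested members 42 had a log2 fold change above 0, with a median of 0.74 against 0.02 over all genes. The groups stood apart for 11 higher (24.4%, beside 6.26% of all genes) and 0 lower, and 9 members higher and 0 lower had an unadjusted p under 0.05. Those 9 were chosen after their values were seen: Oas1a, Rtp4, Ifi44, Irf7, Zbp1, Ifi35, Oasl2, Ifit1 and Dhx58. Irf7, the factor that amplifies the interferon response, had 75.4, 39.5 and 55.4 CPM in AINlowVitD and 34.9, 25.4 and 19.8 in NWD1Ca (1.24 ± 0.50). Ifi44 had 5.50, 5.15 and 4.98 CPM against 2.23, 0.832 and 2.24 (2.14 ± 0.84), with little spread within AINlowVitD. Ifit1, which binds foreign RNA caps, had 28.6, 11.1 and 20.1 CPM against 10.7, 3.41 and 7.84 (1.75 ± 0.81). AINlowVitD 1 was the highest library in each of these 3 genes, and AINlowVitD 2 lay close to NWD1Ca 1 in Irf7 and Ifit1. The list's median log2 CPM was 3.99, 3.25 and 3.70 in the AINlowVitD libraries and 3.15, 2.55 and 2.77 in NWD1Ca. Leaving out each library in turn moved the median log2 fold change between 0.56 and 1.03. With total counts it was 0.51 and 7 members stood apart, all higher (15.6%, beside 1.59% of all genes). With log2(TPM + 1) it was 0.24 and 4 did, all higher (8.89%, beside 1.07% of all genes).

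Genes of antigen presentation showed smaller differences. In the list of MHC class I presentation, which shows peptides from inside the cell to T cells, 22 of 25 tested members lay above 0. The median was 0.32, and 6 stood apart higher (24%, beside 6.26% of all genes) and 0 lower. H2-D1, a class I heavy chain, had 568, 435 and 677 CPM in AINlowVitD and 432, 336 and 365 in NWD1Ca (0.57 ± 0.31). Under total counts 0 members stood apart higher and 1 lower (4%), beside 1.59% and 15.5% of all genes, with a median of 0.08. Class I genes are near-identical copies, and H2-Q2 has 2 identifiers in the file. Of 11 tested genes of MHC class II presentation 9 lay above 0 (median 0.56), most of them at low counts. The groups stood apart for 2 higher (18.2%, beside 6.26% of all genes), and for 1 under total counts (9.09%, beside 1.59% of all genes). These were the protease Ctss (139, 124 and 136 CPM against 111, 93.7 and 87.6) and H2-Ab1 (15.7, 11.3 and 13.9 against 7.77, 10.98 and 7.93).

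The summed CPM of the list of T cell and intraepithelial lymphocyte markers ran from 8.78 to 19.1 in AINlowVitD and from 9.86 to 12.1 in NWD1Ca over 20 genes, and its defining member Cd3e stood at 0.0319 to 0.288 CPM against 0 to 0.198. The myeloid list ran from 8.82 to 15.01 against 9.51 to 11.97 over 17 genes, with Cx3cr1, Fcgr1, Itgax, S100a8 and S100a9 at 0 in all 6 libraries. The B and plasma cell list ran from 59.3 to 77.4 against 44.7 to 67.9 over 11 genes, with Tnfrsf17 at 0. Of its 5 tested members 0 stood apart in either direction. The immunoglobulin genes Igkc, Ighm and Iglc2, which plasma cells make and which that list does not hold, stood apart higher in AINlowVitD at low counts. They were chosen after their values were seen, and how many other immunoglobulin genes stood apart is not given here. Igkc, the kappa light chain constant region, had 25, 40 and 48 counts in AINlowVitD and 5, 1 and 3 in NWD1Ca (unadjusted p = 0.0107, adjusted p = 1 in edgeR). Ighm, the IgM heavy chain, had 10, 76 and 8 counts against 3, 1 and 2, and Iglc2, a lambda light chain, had 25, 2 and 10 against 0 in all 3. DESeq2 on the 6 libraries called Igkc (adjusted p = 0.00215) and Ighm (adjusted p = 0.0376), and edgeR with no filter called all 3. Stromal markers ran from 12.2 to 22.6 against 21.4 to 27.1, with Lum and Sparc at 0, and endothelial ones from 13.6 to 16.3 against 10.002 to 13.7, with Cdh5 and Flt1 at 0. The part of such cells in the interferon and MHC values was not tested.

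In the antimicrobial and Reg family list 21 of 25 tested members lay above 0 (median 0.55), and 0 were called. Reg3b, Reg3g, Tnfaip3 and Nfkbia stood apart higher (4 members, 16%, beside 6.26% of all genes) and 0 lower. Il18, a cytokine that the epithelium stores, had 400, 247 and 543 CPM in AINlowVitD and 259, 121 and 200 in NWD1Ca (1.31 ± 0.58), so AINlowVitD 2 lay below NWD1Ca 1. Reg1, the most abundant Reg gene here, had 9068, 6239 and 11921 CPM against 7349, 1950.5 and 7704 (0.95 ± 0.75), again with overlap. Under total counts 3 members stood apart higher (12%, beside 1.59% of all genes) and 0 lower.

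Among mitochondrial genes, nuclear subunits of oxidative phosphorylation had small differences that all pointed upward with TMM scaling. All 76 tested subunits had a log2 fold change above 0, from 0.01 to 0.52 with a median of 0.28, but 0 were called and 0 had an unadjusted p under 0.05. The groups stood apart for 26 (34.2%, beside 6.26% of all genes) higher and 0 lower. Sdhd, a membrane anchor of succinate dehydrogenase, had 853, 742 and 1017 CPM in AINlowVitD and 673, 561 and 524 in NWD1Ca (0.52 ± 0.26). Cyc1, the cytochrome c1 subunit of complex III, had 859, 745 and 1082 CPM against 729, 624 and 618 (0.40 ± 0.32), and Ndufv1 of complex I had 345, 317 and 358 against 280, 275 and 253 (0.30 ± 0.26). In each of these 3 genes the lowest AINlowVitD library was AINlowVitD 2 and lay just above NWD1Ca 1. The size of the difference depended on scaling, as did the sign of the median with log2(TPM + 1). With total counts the median was 0.06, and 5 members stood apart higher (6.58%) and 1 lower (1.32%). Over all genes 1.59% were higher and 15.5% lower under that scaling. With log2(TPM + 1) the median was -0.01, with 0 higher and 3 lower (3.95%), beside 1.07% and 22.5% of all genes. Mitochondrial ribosomal proteins (45 tested) also lay above 0 in the median (0.15), with 9 apart higher (20%, beside 6.26% of all genes) and 0 lower. Enzymes of the TCA cycle (30 tested) did so too (0.22), with 6 apart higher (20%) and 0 lower. Under total counts 0 ribosomal proteins stood apart in either direction. Of the TCA enzymes 3 did higher (10%) and 3 lower (10%), beside 1.59% and 15.5% of all genes. The 11 tested proteins encoded by mitochondrial DNA itself did not share this direction, with a median of -0.03, 6 members below 0 and 0 apart. Under total counts 0 of them stood apart higher and 5 lower (45.5%, beside 15.5% of all genes). Genes of mitochondrial biogenesis (21 tested, median 0.01) had 0 apart higher and 2 lower (9.52%, beside 5.49% of all genes). Under total counts they had 0 and 3 (14.3% lower, near the 15.5% of all genes). Ppargc1a, the coactivator of mitochondrial biogenesis, had 74.9, 48.2 and 47.5 CPM against 72.4, 39.8 and 43.7 (0.28 ± 0.54, interval -0.84 to 1.40).

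**Figure D4:**
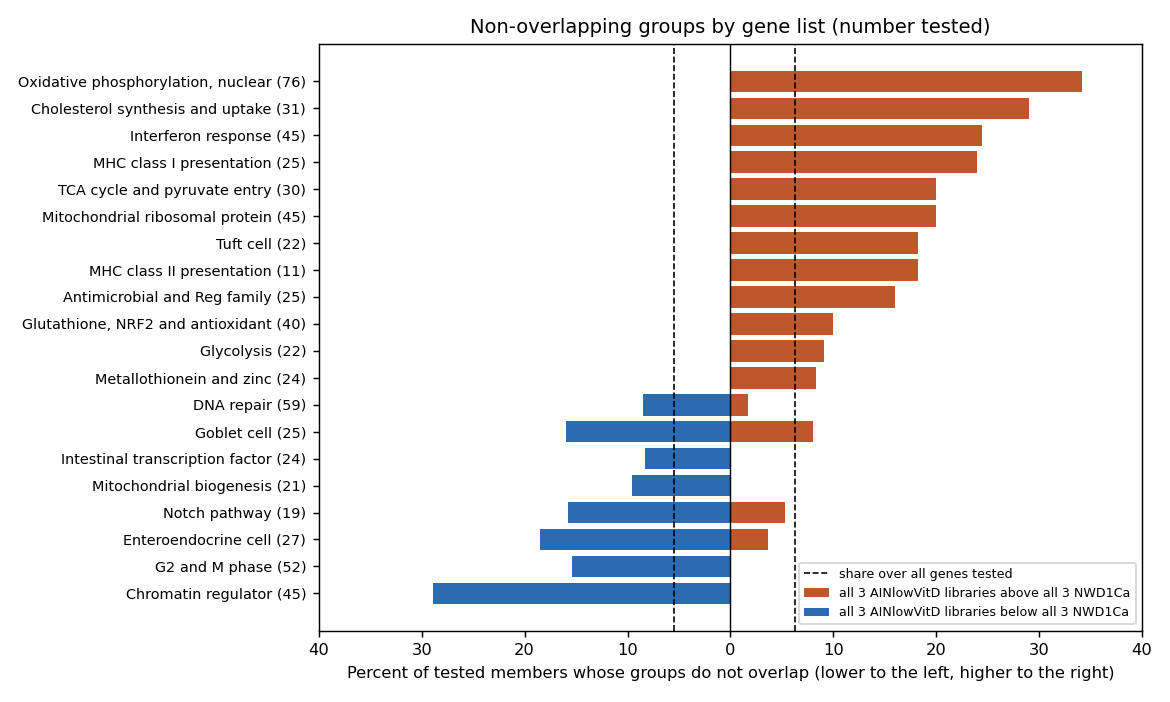
Percent of the tested members of a list (number in brackets) for which all 3 AINlowVitD libraries lay above (right) or below (left) all 3 NWD1Ca libraries with TMM scaling. Dashed lines mark the shares over all genes, 6.26% higher and 5.49% lower. Oxidative phosphorylation has the longest bar to the right (34.2%) and chromatin regulators the longest to the left (28.9%). With total counts the first falls to 6.58%, while the share of all genes higher falls to 1.59%.

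Of 31 tested genes of cholesterol synthesis and uptake, 29 lay above 0 (median 0.33), and 0 were called. The groups stood apart for 9 higher (29%, beside 6.26% of all genes) and 0 lower. The 9 were Fdps, Pmvk, Mvk, Mvd, Fdft1, Sqle, Cyp51, Nsdhl and Acat2, all enzymes of the pathway from acetyl-CoA to sterols. Fdps, farnesyl diphosphate synthase, had 124, 102 and 148 CPM in AINlowVitD and 83.2, 82.0 and 65.2 in NWD1Ca (0.65 ± 0.30, unadjusted p = 0.0458 in edgeR). Sqle, squalene epoxidase, had 75.7, 71.1 and 68.5 CPM against 58.4, 58.0 and 51.5 (0.35 ± 0.35). Under total counts 2 members stood apart higher (6.45%) and 1 lower (3.23%), beside 1.59% and 15.5% of all genes, with a median of 0.10.

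Sugar metabolism and absorption genes were led by 1 or 2 libraries. In the enterocyte list 34 of 36 tested members lay above 0 with a median of 0.78, but the groups stood apart for 0 in either direction. Under total counts 1 member stood apart lower (2.78%, beside 15.5% of all genes). Slc2a5, the apical fructose transporter, had 317, 109 and 1025 CPM in AINlowVitD and 247, 54.0 and 54.0 in NWD1Ca (2.14 ± 0.99), so AINlowVitD 2 lay within the range of NWD1Ca. Khk, ketohexokinase, had 945, 518 and 1207 against 528, 350 and 416 (1.15 ± 0.45). AINlowVitD 3 was highest in both genes, and without it the list's median was 0.32. Fbp1, fructose bisphosphatase, followed the same order, at 641, 256 and 880 CPM against 261, 129 and 212 (1.55 ± 0.53). In glycolysis 18 of 22 tested genes lay above 0 (median 0.44), with 2 apart higher (9.09%, beside 6.26% of all genes) and 0 lower. Under total counts 2 stood apart higher (9.09%) and 2 lower (9.09%), beside 1.59% and 15.5% of all genes. In bulk RNA, more cells of a type and more RNA per cell cannot be told apart.

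Other products of differentiated cells varied with single libraries as well. The Paneth cell list had a median of 0.72 with 18 of 21 members above 0, yet 0 stood apart higher and 1 lower (4.76%, near the 5.49% of all genes). AINlowVitD 2 carried it: Defa24 had 9636, 45143 and 11085 CPM in AINlowVitD and 9109, 10379 and 16992 in NWD1Ca, and Lyz1, lysozyme, had 359, 2146 and 790 against 489, 401 and 932. Without AINlowVitD 2 the list's median was -0.26. Tuft cell genes lay above 0 in 21 of 22 (median 0.48). Of them 4 stood apart higher (18.2%, beside 6.26% of all genes) and 0 lower. Under total counts 2 did higher (9.09%, beside 1.59% of all genes) and 0 lower. Among the 4 was Gfi1b, a tuft cell transcription factor, at 12.3, 8.60 and 9.58 CPM against 6.39, 4.24 and 8.15 (0.67 ± 0.52). Goblet cell genes divided around 0 in log2 fold change (median -0.02). The list's median log2 CPM was lower in every AINlowVitD library (6.52, 6.44 and 6.30) than in NWD1Ca (6.81, 6.69 and 6.80). Of the goblet cell genes 2 stood apart higher (8%, near the 6.26% of all genes) and 4 lower (16%, beside 5.49%). Under total counts 0 stood apart higher and 8 lower (32%, beside 15.5% of all genes). Muc2, the main gel-forming mucin, had 895, 689 and 651 CPM against 1034, 1518 and 904 (-0.42 ± 0.52). Enteroendocrine genes had 1 apart higher and 5 lower of 27 (18.5% lower, beside 5.49% of all genes). Under total counts they had 0 and 7 (25.9% lower, beside 15.5% of all genes). Sst, somatostatin, was the higher one (1417, 999 and 1043 CPM against 901, 979 and 741), and Gcg, glucagon, was among the lower ones (158, 169 and 165 against 192, 355 and 324).

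**Figure D5:**
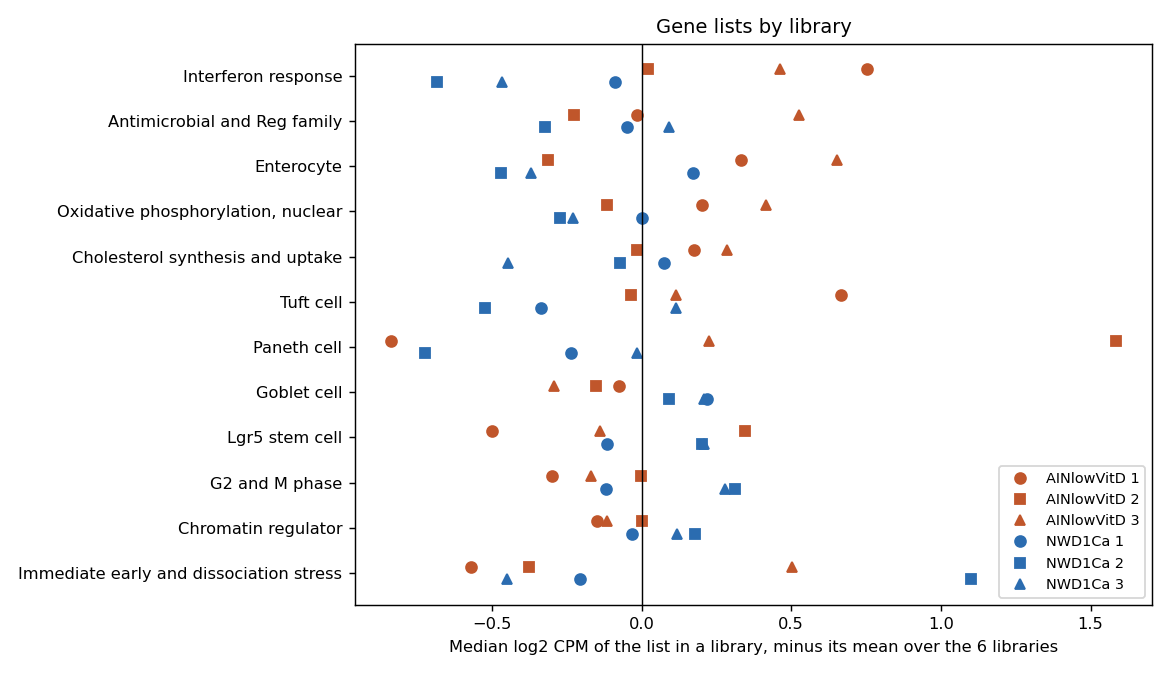
Median log2 CPM of the members of 12 lists in each of the 6 libraries, minus the mean of the 6 values. Interferon response separates the groups, at 3.25 to 3.99 log2 CPM in AINlowVitD and 2.55 to 3.15 in NWD1Ca before centring. The goblet list separates them in the other direction, at 6.30 to 6.52 in AINlowVitD and 6.69 to 6.81 in NWD1Ca. The Paneth list is set by AINlowVitD 2 (7.21) and the immediate early list by NWD1Ca 2 (6.22).

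Genes of cell division lay lower in AINlowVitD. Of 52 tested genes of the G2 and M phases 50 had a log2 fold change below 0, with a median of -0.42. The groups stood apart for 8 lower (15.4%, beside 5.49% of all genes) and 0 higher. There were 5 members lower at an unadjusted p under 0.05 and 0 were called. Mki67, the protein that coats mitotic chromosomes, had 96.7, 138 and 99.3 CPM in AINlowVitD and 135, 208 and 221 in NWD1Ca (-0.78 ± 0.26, unadjusted p = 0.00736 in edgeR), with AINlowVitD 2 just above NWD1Ca 1. Top2a, the topoisomerase that untangles replicated DNA, had 145, 232 and 152 CPM against 206, 337 and 320 (-0.74 ± 0.29). Aspm, a spindle pole protein outside the list, did not overlap, at 12.4, 14.3 and 11.2 CPM against 17.4, 21.6 and 29.9 (-0.89 ± 0.28). Aurka, a kinase of the spindle poles, had 31.5, 31.4 and 35.1 CPM against 36.5, 53.4 and 45.8 (-0.58 ± 0.29). Leaving out each library moved the list's median between -0.60 and -0.33. With total counts it was -0.63 with 14 apart lower (26.9%, beside 15.5% of all genes under that scaling). In the list of S phase 38 of 41 genes lay below 0 with a median of -0.19, and 0 stood apart. Under total counts 0 stood apart higher and 3 lower (7.32%, under the 15.5% of all genes).

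DNA repair and chromatin genes lay on the same side. Neil3, a glycosylase that removes oxidised bases, had 7.23, 11.2 and 8.66 CPM in AINlowVitD and 16.7, 16.6 and 16.8 in NWD1Ca, a mean of 9.03 ± 2.01 against 16.7 ± 0.115 (SD, n = 3). Its NWD1Ca libraries lay close together and above all AINlowVitD libraries (-0.99 ± 0.33, unadjusted p = 0.00753 in edgeR), and DESeq2 on the 6 libraries called it (adjusted p = 0.0376), within a range of 0.0376 to 1 over the alternatives. The DNA repair list had 46 of 59 members below 0 (median -0.22), with 1 apart higher and 5 lower (8.47%, near the 5.49% of all genes). Under total counts 0 stood apart higher and 13 lower (22%, beside 15.5% of all genes). In the chromatin regulator list 42 of 45 lay below 0 (median -0.23), with 13 apart lower (28.9%, beside 5.49% of all genes) and 0 higher, and 0 at an unadjusted p under 0.05. Mll1, a histone H3K4 methyltransferase, had 30.9, 30.3 and 25.3 CPM against 34.2, 42.7 and 41.7 (-0.46 ± 0.29). Crebbp, a histone acetyltransferase, had 55.6, 54.5 and 44.5 against 61.4, 73.4 and 66.3 (-0.37 ± 0.27), and Chd8, a chromatin remodeller, had 21.9, 26.5 and 16.1 against 29.1, 29.9 and 27.4 (-0.41 ± 0.24). With total counts 23 members of the chromatin regulator list stood apart lower (51.1%, beside 15.5% of all genes).

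Stem cell markers overlapped. Lgr5 had 11.4, 35.8 and 12.6 CPM in AINlowVitD and 16.8, 21.5 and 26.1 in NWD1Ca (-0.18 ± 0.49, interval -1.21 to 0.85), and AINlowVitD 2 was both the highest library in Lgr5 and the highest in Paneth genes. Olfm4 had 599, 1865 and 1083 CPM against 824, 1077 and 1319 (-0.03 ± 0.51), and Axin2, a Wnt target, had 20.1, 47.3 and 22.97 against 34.3, 45.2 and 45.2 (-0.55 ± 0.39). The list had 22 of 26 members below 0 with a median of -0.17, and 0 stood apart in either direction. That median was -0.64 without AINlowVitD 2 and -0.01 without AINlowVitD 1, the ends of its range over the alternatives. It was -0.35 with total counts.

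Single libraries also set several of the smallest unadjusted p. Jmy, an actin nucleator and p53 cofactor, had 5.405, 5.75 and 4.25 CPM in AINlowVitD and 3.27, 73.9 and 6.10 in NWD1Ca (-2.36 ± 0.73), and without NWD1Ca 2 its log2 fold change was 0.20. NWD1Ca 2 was also the highest of the 6 libraries in immediate early genes, which respond within minutes to stimulation or handling: Fos had 18.4, 14.5 and 109 CPM against 24.6, 246 and 18.4, and Jun had 40.6, 49.3 and 82.2 against 46.5, 345 and 38.0. AINlowVitD 3 was the next highest in both. Nrg4, a ligand of ERBB receptors, had 25.3, 16.4 and 89.2 CPM against 15.003, 11.1 and 10.7 (1.48 ± 0.44), and 0.77 without AINlowVitD 3. Bex1, an adaptor protein known from neurons, had 4.09, 3.51 and 3.39 CPM against 4.803, 11.1 and 8.97 (-1.27 ± 0.43), with no overlap. With no minimum level, the smallest p on the lower side belonged to the scarce transcripts Gm8399 (7, 2 and 5 counts against 9, 103 and 108), Gm13408, Loxl2 (3, 1 and 1 against 8, 50 and 4), Arhgap20 (0, 0 and 0 against 4, 12 and 25) and 4933406P04Rik. On the higher side they were Reg3b, Oas1a, Nrg4, A930038B10Rik and Ak4. The 4 libraries without AINlowVitD 3 and NWD1Ca 2, an alternative added after the data were seen, gave 1 called gene in edgeR, E030024N20Rik (lower), which was also the 1 gene called in the 5 female libraries.

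The unmodified diets, AIN against NWD1, share no library with this comparison. Spike-ins made up 1.35e-05% to 5.18% of counts in AIN and 5.24% to 24.7% in NWD1. The TMM factors were 1.01 to 1.09 and 1.26 to 1.36. Mitochondrial ribosomal RNA was 0.234% to 0.901% and 0.312% to 0.965% of gene counts, below all 6 libraries above. AIN 3, NWD1 1 and NWD1 2 were male and the others female. The part of these differences in the fold changes was not tested. In the same fit 106 genes (0.66%) were higher and 17 (0.106%) lower in AIN of 16050. The sum of both, 123, became 0 without AIN 1, 178 without AIN 2 and 48 without AIN 3. It became 18 without NWD1 1, 1 without NWD1 2 and 274 without NWD1 3. The test of the difference between both fold changes called 0 genes (0%), with 494 at an unadjusted p under 0.05 and a smallest adjusted p of 0.327, so no gene was shown to differ between them. The interferon list had a median of 0.74 in AINlowVitD against NWD1Ca and 1.22 in AIN against NWD1, the enterocyte list 0.78 and 2.06, oxidative phosphorylation 0.28 and 0.77, and the G2 and M phase list -0.42 and -0.10. Oas1a, at 1.15 ± 0.34, had 1.38 ± 0.34 in AIN against NWD1 (adjusted p = 0.0533 in edgeR). Reg3b had 0.64 ± 0.81 there (difference 2.48 ± 1.16, unadjusted p = 0.0459, adjusted p = 1). Mt1 took opposite signs, 0.62 ± 0.47 and -2.13 ± 0.48, but the difference of 2.75 did not pass (unadjusted p = 0.000752, adjusted p = 0.942). Trpv6, near 0 in both groups here, was lower in AIN than in NWD1 (adjusted p = 0.00967), with a difference whose unadjusted p was 0.000104 and adjusted p 0.834 in edgeR.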

How the data were processed

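Total RNA of sorted Lgr5 cells was made into cDNA with SMART-Seq v4 and into paired-end libraries with Nextera XT, per the labels' protocols. The kit does not mark strand, so overlapping antisense genes cannot be told apart. The authors deposited whole-number counts per gene, not normalised, and a second table with TPM of the same genes. The submitters' processing notes name build mm9 and the tools STAR 2.4.2a, HTSeq 0.6.1 and edgeR, with no role for each.

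Deposited counts were tested with edgeR 4.0.16 in R 4.3.3 (quasi-likelihood F test, two-sided, TMM scaling, filterByExpr, 16050 genes). The fit held all 21 libraries of 7 groups, a mean for each group and a sex term, and Benjamini-Hochberg adjustment ran over all genes tested, with 0.05 as the threshold. Adjusted and unadjusted p-values are from this test unless another is named. CPM values use TMM-scaled library sizes. The self-test on simulated counts ran before the fits. Alternatives used DESeq2 1.42.0, limma 3.58.1 on log2(TPM + 1) and log2(TPM + 0.1), other scalings and filters, and subsets of libraries. Intervals and floors cover counting error or library spread only, since PCR copies carry no molecular identifiers.

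The comparison and the 49 gene lists were chosen with earlier results of these data known. The rule for named genes takes the largest changes past the threshold and, since fewer than 5 passed in either direction, the 5 smallest p per direction, given both with and without the exclusion of predicted genes and a minimum mean log2 CPM of 2. It adds Vdr, Cyp24a1, Trpv6, S100g, Atp2b1, Lgr5 and Ppargc1a. Other members were chosen after their values were seen, as the smallest p of their list or for their role. Members of the Reg3, Oas1, Defa, H2, metallothionein and ribosomal protein families are uncertain, since copies may share or lose reads. The 4 promoters come from RefSeq, matched by symbol.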

Additional observations from a re-analysis of the deposited data

How the results depend on the processing

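Across the planned and added alternatives 478 of 514 values of single genes kept their direction and side of the threshold, 20 changed direction and 16 passed the threshold. Of 1126 medians of lists, 1002 moved by less than the spread used as the limit and 124 by more. For AINlowVitD against NWD1Ca, 0 genes were called in edgeR, and 0 under the other scalings, with both limma fits over all libraries, with at least 50 counts in 3 libraries, without a sex term, with only the 6 or only 9 libraries, and without mitochondrial genes. Calls appeared with DESeq2 (5), with no filter (90), in the 5 female libraries (1), with DESeq2 on the 6 libraries (20) and in 4 libraries (1). For AIN against NWD1 the count of 123 became 802 with DESeq2, 232 with limma on log2(TPM + 1), 969 with no filter, 390 without a sex term and 0 to 274 when 1 library was left out. For the difference between both contrasts 0 became 12 with DESeq2, 2 with limma, 117 with no filter and 0 to 12 when 1 library was left out (12 without NWD1 3). The cause was not tested.

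Libraries with the same replicate number correlated in their deviations from the group means at 0.07, 0.16 and -0.04. The 3 deviations of a group sum to 0 for each gene, so these values cannot settle whether the numbers mark a pairing. With the replicate block edgeR called 0 genes in the main comparison (216 at an unadjusted p under 0.05), 129 in AIN against NWD1, 0 for the difference and 0 spike-ins. Not every library correlated best with its own number, as AINlowVitD 3 did so with NWD1Ca 1 (0.14).

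Directions that changed belonged to genes near 0 or set by 1 library. Jmy was 0.18 in the 4 libraries, and ranged from -2.88 to 0.20 when 1 library was left out. Atp2b1 was -0.13 with total counts, -0.16 with log2(TPM + 1), -0.17 with log2(TPM + 0.1), -0.0044 in the 5 female libraries, -0.015 in 9 libraries, -0.21 with limma on the 6 libraries and -0.16 in the 4 libraries, with a range of -0.0441 to 0.21 when 1 library was left out. Lgr5 was 0.0905 in the 5 female libraries and 0.0775 in the 4 libraries, with a range of -1.08 to 0.13. Limma on the 6 libraries gave -0.11 for Ppargc1a and -0.11 for S100g, whose range was -0.49 to 0.68. Trpv6 was -0.13 in 9 libraries, with a range of -0.16 to 1.98. With 3 libraries a group, 95% intervals reached 0.85 to either side in the median, and the counts of scarce transcripts such as Trpv6 and Cyp24a1 allow no fold.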
